A study of Mus musculus with 124 samples.

Results

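The genes described here are 10 members of the cellular response to temperature and protein stress, out of 53465 genes counted: the cold-inducible RNA-binding protein genes Cirbp and Rbm3, the cytosolic chaperone and co-chaperone genes Hspa1a, Hspa1b, Hspa8, Hsph1, Hsp90aa1 and Dnajb1, the endoplasmic reticulum chaperone gene Hspa5, and Hsf1, the transcription factor of the heat shock response. They were chosen by name, because Cirbp and Hspa1a had differed between EtOH and PBS samples of the same data. The EtOH against PBS values of the members are therefore given as a description, with no test. RNA came from sorted T cells, B cells and monocytes of the blood of CD1 mice, an outbred stock. Per the labels' protocols, ethanol was injected at 4.0 g/kg (25%, in saline buffered with phosphate) at embryonic days 16 and 17, maternal diabetes was induced with 150 mg/kg of streptozotocin, and blood of the offspring was taken at postnatal days 35 to 40. Samples carry the treatment labels PBS (6 T cell, 8 B cell and 8 monocyte samples), EtOH (9, 8 and 8) and CBM (12, 13 and 13), and the labels do not explain CBM. PBS and EtOH samples form batch 1 and CBM samples form batch 2, so CBM and batch cannot be told apart. The 85 samples carry 52 female and 33 male labels, and the labels do not say that they come from separate animals, so p-values measure the spread between these samples.

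Cells answer heat and misfolded protein through Hsf1, which is held inactive by chaperones and, once released, binds heat shock elements in front of chaperone genes and raises their transcription. Inducible Hsp70 (Hspa1a and Hspa1b), constitutive Hsc70 (Hspa8), the Hsp110 nucleotide exchange factor Hsph1, the Hsp40 co-chaperone Dnajb1 and Hsp90 alpha (Hsp90aa1) then refold client proteins together. Mild cooling does the reverse for Cirbp and Rbm3, RNA-binding proteins that rise below core body temperature and fall with warming, and Hspa5 (BiP) answers misfolded protein inside the endoplasmic reticulum through a separate pathway. Whether cold-inducible and heat-inducible genes moved against each other was therefore asked within each sorted cell type.

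Promoter sequences are shown for 5 members that hold a motif of these pathways, from 250 bases before to 50 bases after the RefSeq start site on GRCm38.p6, read 5′ to 3′ on the gene's strand. RefSeq promoter entries matched 6 of the 10 members (9 entries), and Rbm3, Hspa8, Hsp90aa1 and Hsf1 had none. Capitals mark a mild cold response element in Cirbp (TCCCCGCC, chr10:80167589-80167888, plus strand, a start site 1854 bases inside the annotated gene), 2-unit heat shock elements in Hspa1a (chr17:34972107-34972406, minus strand), Hspa1b (chr17:34959189-34959488, minus strand) and Hsph1 (chr5:149636287-149636586, minus strand), and an endoplasmic reticulum stress element in Hspa5 (chr2:34771840-34772139, plus strand).
Cirbp: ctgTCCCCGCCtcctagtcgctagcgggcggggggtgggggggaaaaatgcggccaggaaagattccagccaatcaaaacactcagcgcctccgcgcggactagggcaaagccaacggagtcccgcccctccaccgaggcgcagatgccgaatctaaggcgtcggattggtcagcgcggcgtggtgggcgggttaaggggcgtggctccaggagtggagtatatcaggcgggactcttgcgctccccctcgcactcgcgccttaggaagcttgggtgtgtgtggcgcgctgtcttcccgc
Hspa1a: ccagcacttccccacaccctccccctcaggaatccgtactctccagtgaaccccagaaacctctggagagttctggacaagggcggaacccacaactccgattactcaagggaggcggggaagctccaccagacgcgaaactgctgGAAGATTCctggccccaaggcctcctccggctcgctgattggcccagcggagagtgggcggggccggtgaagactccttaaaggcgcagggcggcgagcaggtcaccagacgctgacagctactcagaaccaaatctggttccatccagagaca
Hspa1b: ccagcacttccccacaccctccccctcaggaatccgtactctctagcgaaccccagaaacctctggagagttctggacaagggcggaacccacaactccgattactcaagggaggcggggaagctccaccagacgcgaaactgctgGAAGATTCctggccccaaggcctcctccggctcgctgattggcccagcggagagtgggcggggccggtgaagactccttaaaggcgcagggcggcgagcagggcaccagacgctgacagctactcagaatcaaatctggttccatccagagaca
Hsph1: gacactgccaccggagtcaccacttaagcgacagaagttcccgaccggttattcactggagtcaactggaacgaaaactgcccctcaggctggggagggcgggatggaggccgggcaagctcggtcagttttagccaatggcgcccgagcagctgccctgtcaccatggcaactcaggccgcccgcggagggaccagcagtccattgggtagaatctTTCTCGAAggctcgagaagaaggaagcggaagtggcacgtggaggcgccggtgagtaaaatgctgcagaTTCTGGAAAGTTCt
Hspa5: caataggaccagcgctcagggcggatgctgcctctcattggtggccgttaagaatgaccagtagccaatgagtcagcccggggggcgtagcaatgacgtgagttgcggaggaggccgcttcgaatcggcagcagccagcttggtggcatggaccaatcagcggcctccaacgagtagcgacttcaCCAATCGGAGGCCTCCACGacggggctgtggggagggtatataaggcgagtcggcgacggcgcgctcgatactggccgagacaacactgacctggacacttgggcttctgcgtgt
Motifs were searched on both strands. A 2-unit heat shock element was taken as GAANNTTC or TTCNNGAA, the 3-unit form adds a further unit in the same alternation, and a 3-unit match contains 2-unit matches that overlap. The endoplasmic reticulum stress element was taken as CCAAT, 9 bases of any kind and CCACG. Of 32851 mouse promoters of this length, 15.1% held a 2-unit heat shock element, 0.603% a 3-unit one, 5.38% the mild cold response element and 0.119% the endoplasmic reticulum stress element. The Cirbp match began 247 bases before the start site and the Hspa5 match 65 bases before it. Hspa1a and Hspa1b each held a heat shock element 104 bases and a mild cold response element 137 bases before the start site. The motifs did not separate the groups of genes, since the second Cirbp entry held none of them, and Dnajb1 held no heat shock element in either entry and a mild cold response element at position 34 in its second. The first Hsph1 entry held 2-unit matches at positions -33, 36 and 41, the last 2 of them overlapping within a 3-unit match. The Hspa1a and Hspa1b promoters were identical at 296 of 300 bases (98.7%), and the differences, with the Hspa1a base first and positions counted from the 5′ end, were C44T, T47C, T249G and C276T. These matches are letters in a window, and no binding was measured.

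Values are counts per 1000000 counts of a sample (CPM), from raw counts that the authors deposited. Sample totals ranged from 0.328 to 8.28 M counts (M, 1000000). Of the 85 samples, 15 went against a label, 13 of them by the genes of the sex chromosomes and 2 by cell type markers: the PBS monocyte sample JS17 carried T cell transcripts, and the EtOH T cell sample JS29 carried monocyte transcripts. All 15 were kept under their labels, and comparisons that hold them are given with and without them. The marker score of the labelled cell type (mean log2 of CPM + 1 over 15 genes) otherwise lay between 8.52 and 9.94. Neutrophil markers were high in monocyte samples, with a median score of 8.55 in PBS, 9.09 in EtOH and 9.09 in CBM and values up to 11.3. In CBM, the share of counts from mitochondrial genes had a median of 1.45% in T cells, 1.50% in B cells and 0.673% in monocytes, against 1.22%, 1.01% and 0.457% in PBS. An early response score (11 immediate early genes, mean log2 of CPM + 1) had medians of 6.69, 7.35 and 8.53 in CBM and 7.34, 7.30 and 8.98 in PBS. Monocyte markers in T cell samples had a median score of 5.16 in CBM (3.48 to 6.44) and 3.89 in PBS (3.11 to 4.08). The part of mitochondrial share, early response and neutrophil RNA in the differences that follow was not tested. Nor was the part of monocyte RNA in the correlations over T cell samples. In bulk samples, fewer cells of a type and less RNA per cell cannot be told apart.

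All members lie on separate loci of GRCm38, from Hspa5 at chr2:34771970-34777547 and Cirbp at chr10:80165985-80172786 to Rbm3 at chrX:8138975-8145880, with Hspa1a (chr17:34969190-34972156) and Hspa1b (chr17:34956436-34959238) close neighbours on chromosome 17. Counts of some members are uncertain because other genes share their sequence: of 50-base windows in their exons, 66.3% of Hspa1a, 62.3% of Hspa1b, 74.8% of Hspa8, 58.5% of Hsp90aa1 and 14.8% of Rbm3 also occur in another gene. Strand of the counting is not stated, so Rbm3 and Hspa1a cannot be told apart from their antisense neighbours Rbm3os and Gm20481. Per kilobase of annotated exon, Hspa5 was the most abundant member and Hspa8 the next in every CBM cell type. Hspa5 was at 181 ± 45.1 CPM per kilobase (mean ± SD) in CBM T cells (n = 12), 179.6 ± 41.3 in B cells (n = 13) and 198 ± 51.8 in monocytes (n = 13). Hspa8 was at 152 ± 49.8, 104 ± 51.8 and 115 ± 38.7 CPM per kilobase in these groups, and its spread overlapped that of Hspa5. Cirbp, at 49.4 ± 16.2 CPM per kilobase in CBM T cells and 60.1 ± 13.3 in B cells, was the fourth of the members in lymphocytes and, at 18.6 ± 7.33, the sixth in monocytes. Hspa1a was the lowest member in every CBM cell type, at 1.51 ± 3.11 CPM per kilobase in T cells, 1.63 ± 5.05 in B cells and 5.89 ± 8.03 in monocytes, with spreads as large as its levels. Hspa1a had no count in 10 of the 85 samples, which allows a level of up to 0.465 to 9.15 CPM depending on depth (3 counts of the total).

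**Figure D1:**
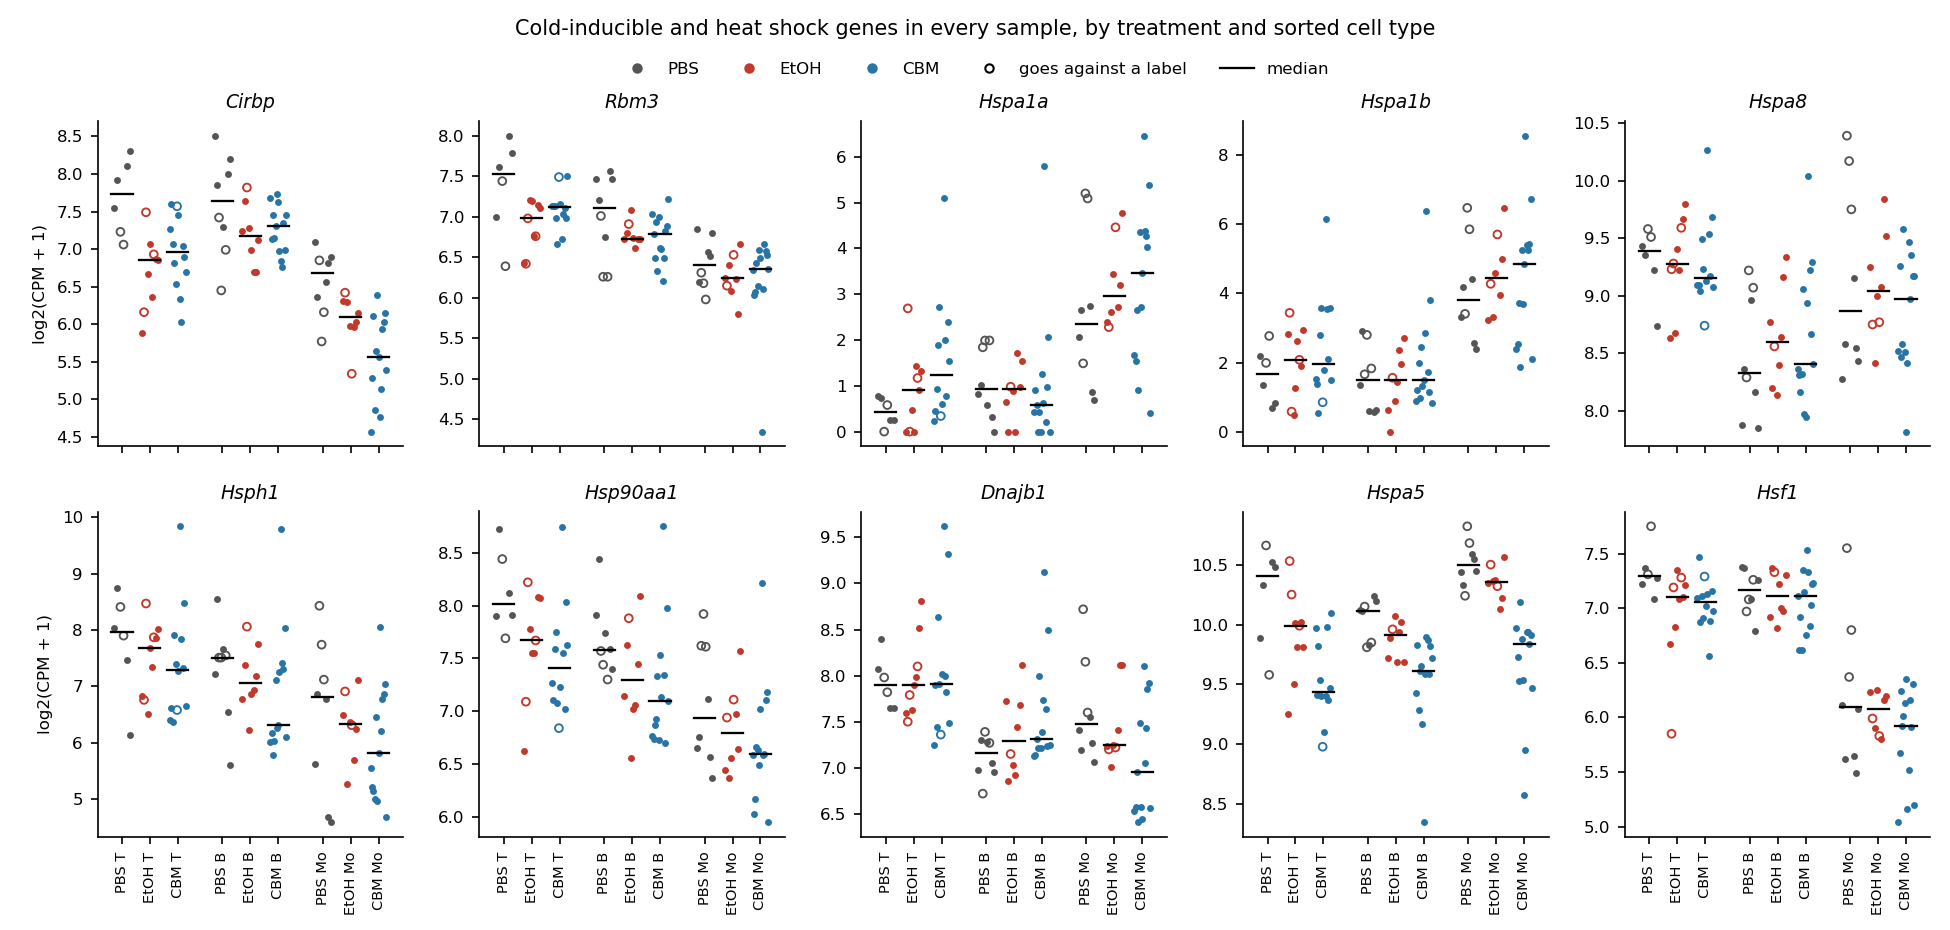
Level of each of the 10 members (log2 of CPM + 1, y axis) in every sample, by cell type and treatment (x axis). Points are samples, open circles are samples that go against a label and bars are group medians. Cirbp medians are lower in EtOH and CBM than in PBS in each cell type, and the highest Hspa1a, Hspa1b and Hsph1 values over all samples lie in CBM.

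Sorted cell types differed in the members they carried. In CBM samples, where no sample entered the choice of genes, Cirbp was 1.99-fold higher in T cells than in monocytes (log2 difference 0.99 ± 0.17 SE, edgeR quasi-likelihood adjusted p = 6.45e-06) and 2.63-fold higher in B cells than in monocytes (1.40 ± 0.17, adjusted p = 5.59e-09). Inducible Hsp70 ran the other way. Hspa1b was 7.93-fold lower in T cells than in monocytes (log2 difference -2.99 ± 0.75, edgeR adjusted p = 8.56e-04) and 8.36-fold lower in B cells (-3.06 ± 0.73, adjusted p = 4.87e-04), and Hspa1a was 6.29-fold and 7.76-fold lower. Hspa5 was also lower in T cells (-0.57 ± 0.17, adjusted p = 0.00512) and B cells (-0.46 ± 0.17, adjusted p = 0.0211) than in monocytes. Hsf1 was higher in T cells (0.78 ± 0.12, adjusted p = 5.43e-07) and B cells (0.93 ± 0.12, adjusted p = 9.74e-09), so the cell type with the most Hsf1 transcript did not have the most inducible Hsp70. Rbm3 (0.40 ± 0.15, adjusted p = 0.0223) and Hsph1 (0.97 ± 0.41, adjusted p = 0.0446) were higher in T cells than in monocytes. In all, 7 of 10 members passed between T cells and monocytes, where 49.5% of all genes tested did, and 5 of 10 between B cells and monocytes, where 52.3% did. Between T and B cells none of 10 passed by edgeR or DESeq2, against 31.8% of all genes by edgeR, and 1 by edgeR (Cirbp) and 2 by DESeq2 had an unadjusted p under 0.05. Of all genes, 6554 of 16687 had such a p by edgeR and 8825 of 49130 by DESeq2. T and B cell samples of the same CBM number deviated together in all 12 pairs, and with the number as a replicate block 4 of 10 passed, against 34.7% of all genes. With the block Cirbp was lower in T than in B cells (-0.44 ± 0.15, edgeR adjusted p = 0.0186), while Hspa8 (0.53 ± 0.15, adjusted p = 0.00660), Hsph1 (0.33 ± 0.12, adjusted p = 0.0261) and Dnajb1 (0.33 ± 0.12, adjusted p = 0.0279) were higher.

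The same contrasts in PBS held the same direction for inducible Hsp70. PBS samples entered the choice of Cirbp and Hspa1a, so Cirbp is given here with no test. The tests of Hspa1b are not independent of that choice. Hspa1b was 11.8-fold lower in T cells than in monocytes (log2 difference -3.56 ± 0.76, edgeR adjusted p = 6.69e-04) and 11.2-fold lower in B cells (-3.48 ± 0.69, adjusted p = 2.54e-04). Cirbp differed by 0.78 ± 0.30 between B cells and monocytes and by 0.74 ± 0.32 between T cells and monocytes. Dnajb1, which stimulates the ATPase of Hsp70, was higher in T than in B cells (0.72 ± 0.17, adjusted p = 0.00182). In PBS, 1 of 10 members passed between T and B cells (33.7% of all genes), 5 of 10 between T cells and monocytes (47.3%) and 7 of 10 between B cells and monocytes (52.2%). These counts were taken over all members, Cirbp and Hspa1a among them, and are not independent of the choice of genes. The PBS samples that go against a label include the monocyte sample with T cell transcripts. Without them Hspa1b was 8.63-fold lower in T cells and 7.72-fold lower in B cells than in monocytes. Cirbp then differed by 0.67 ± 0.24 and 0.83 ± 0.22 in the same order.

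In EtOH samples both cold-inducible genes had lower medians than in PBS whichever the cell type, and Cirbp was chosen for this. Cirbp in PBS T cells ranged from 132 to 314 CPM with a median of 214, and in EtOH T cells from 57.9 to 179 with a median of 115. Of the 9 EtOH T cell samples, 7 lay below the lowest PBS sample and all 9 below the PBS median. In B cells the PBS range of 86.1 to 363 CPM (median 201) enclosed the EtOH range of 102 to 225 (median 144), so the groups overlapped. In monocytes Cirbp ranged from 53.6 to 136 CPM in PBS (median 102) and from 39.6 to 84.7 in EtOH (median 67.2), with 1 of 8 EtOH samples below the lowest PBS sample. The log2 difference from PBS was -0.98 ± 0.24 (SE) in T cells, -0.45 ± 0.26 in B cells and -0.50 ± 0.23 in monocytes. Without samples whose transcripts contradict a label it was -1.49 ± 0.21, -1.01 ± 0.23 and -0.82 ± 0.20, and 6 of 6 EtOH T cell, 6 of 7 B cell and 6 of 6 monocyte samples lay below the lowest PBS sample left. Rbm3 had smaller differences of the same sign, at -0.55 ± 0.21, -0.31 ± 0.19 and -0.14 ± 0.19 with all samples. Its PBS and EtOH ranges overlapped in each cell type, at 82.9 to 255 CPM (median 184) against 84.8 to 147 (median 125) in T cells. In B cells, with samples that go against a label left out, they were 107 to 188 CPM (median 176) against 97.4 to 135 (median 105).

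The inducible chaperones had low and scattered levels in lymphocytes. Hspa1a ranged from 0 to 0.715 CPM in PBS T cells (median 0.347) and from 0 to 5.44 in EtOH T cells (median 0.865), and 5 of 9 EtOH samples exceeded the highest PBS sample. The 5.44 CPM belonged to JS29, the sample with monocyte transcripts, and monocytes carried more Hspa1a than T cells. In monocytes Hspa1a ranged from 0.629 to 35.7 CPM in PBS (median 4.23) and from 3.87 to 26.5 in EtOH (median 6.87). The log2 difference in monocytes was 0.17 ± 0.76 with all samples and 2.69 ± 0.41 without those that go against a label, whose removal lowered the highest PBS monocyte value to 5.75 CPM. Hspa1b went with it, at 0.28 ± 0.64 and 2.04 ± 0.41, and at 0.77 ± 0.71 and 1.56 ± 0.68 in T cells. Both genes share most of their sequence, and their summed level had a median of 2.59 CPM in PBS T cells and 4.47 in EtOH T cells, of 3.54 and 2.31 in B cells, and of 17.3 and 27.6 in monocytes. In B cells the medians of Hspa1a were 0.902 CPM in PBS and 0.908 in EtOH and those of Hspa1b 1.86 and 1.82, with 0 of 8 EtOH samples above the highest PBS sample for either gene.

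With all samples kept, the abundant chaperones lay close to PBS in EtOH samples. Hspa8, which folds proteins in unstressed cells, differed by 0.09 ± 0.20 (log2, SE) in T cells, 0.12 ± 0.21 in B cells and -0.11 ± 0.29 in monocytes. Dnajb1 differed by 0.18 ± 0.17 among T cells and 0.28 ± 0.15 among B cells. Hsp90aa1, the inducible cytosolic Hsp90, differed by -0.38 ± 0.19 among T cells and -0.18 ± 0.15 among B cells. Hsph1 differed by -0.15 ± 0.26, -0.02 ± 0.25 and -0.34 ± 0.40, the last of which became 1.06 ± 0.35 without samples whose transcripts contradict a label. Hspa5 differed by -0.25 ± 0.29, -0.21 ± 0.11 and -0.12 ± 0.16, and Hsf1 by -0.33 ± 0.14, -0.02 ± 0.11 and -0.18 ± 0.22. Over all genes, edgeR passed 0% in each cell type with all samples, while 1183, 904 and 411 genes had an unadjusted p under 0.05 in T cells, B cells and monocytes and DESeq2 passed 444, 1 and 1. Without samples whose transcripts contradict a label edgeR passed 1.37%, 4.62% and 0.104% of genes.

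**Figure D2:**
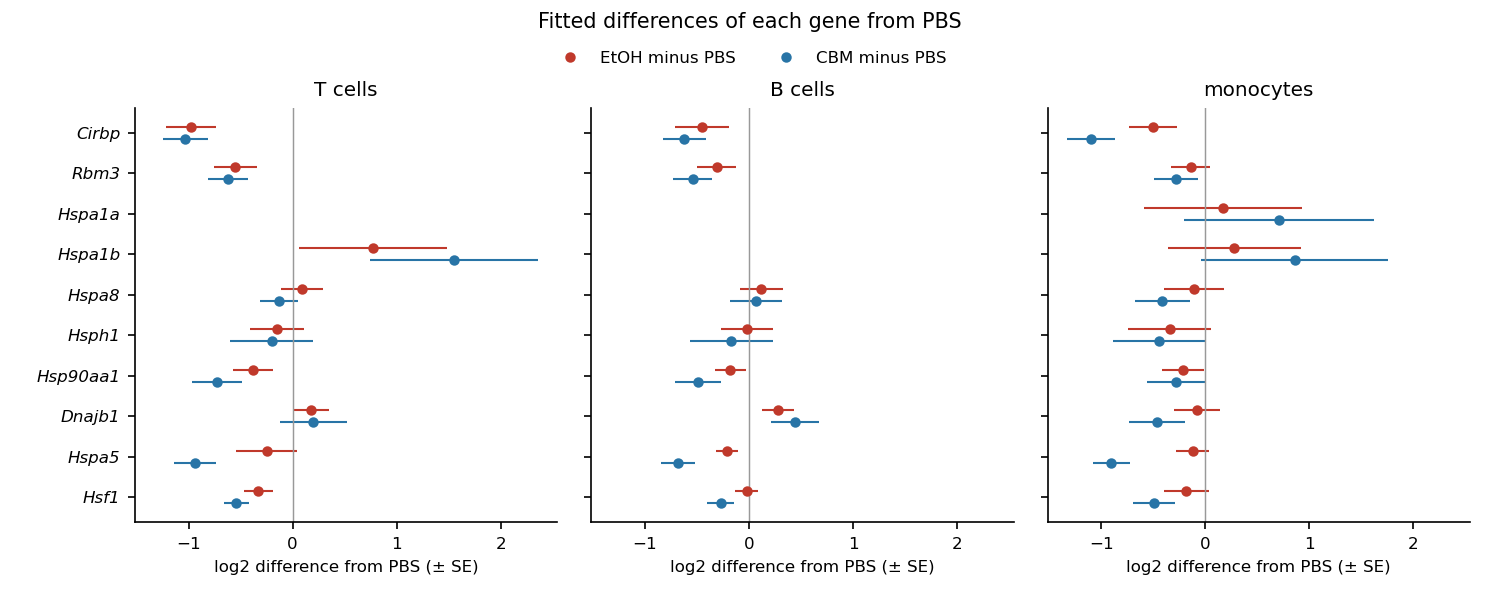
Log2 difference from PBS (x axis) of each member (y axis) in T cells, B cells and monocytes (panels), for EtOH (red) and CBM (blue), with SE bars from the edgeR fit of all samples and no point for a member below the count filter. The Cirbp differences lie below 0 in all 6 comparisons, from -0.45 to -1.10, and have no test. Those of Hspa1b lie above 0 where it passed the count filter, with no test for EtOH and none passing for CBM.

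CBM samples carried less Hspa5, the main chaperone of the endoplasmic reticulum, than PBS samples in all 3 cell types, and less Rbm3 in lymphocytes. These comparisons use the same PBS samples as EtOH against PBS, on which Cirbp and Hspa1a were chosen, so those 2 genes are given with no test and the other 8 with one. Hspa1b shares most of its sequence with Hspa1a, so its test is not independent of that choice. Nor is that of Rbm3, which varied with Cirbp within the PBS and EtOH groups (r = 0.74 in T cells and 0.85 in B cells). Hspa5 ranged from 1209 to 1801 CPM in PBS monocytes (median 1447) and from 382 to 1171 in CBM monocytes (median 916), and all 13 CBM samples lay below the lowest PBS sample. In T cells it ranged from 767 to 1619 CPM in PBS (median 1359.9) and from 504 to 1097 in CBM (median 693), with 8 of 12 CBM samples below the PBS range. In B cells the ranges were 896 to 1211 CPM (median 1107) and 326 to 955 (median 779), with 9 of 13 CBM samples below. Hspa5 fell by 0.94 ± 0.20 (log2, SE) in T cells (edgeR adjusted p = 8.04e-04), 0.68 ± 0.16 in B cells (adjusted p = 0.00168) and 0.90 ± 0.18 in monocytes (adjusted p = 9.64e-04). Between 25.5% and 45.2% of all genes passed in these comparisons, so the calls on members stand among many others.

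Rbm3 in T cells ranged from 82.9 to 255 CPM in PBS and from 101 to 179.6 in CBM (median 138), and all 12 CBM samples lay below the PBS median of 184. It fell by 0.62 ± 0.19 in T cells (edgeR adjusted p = 0.0120) and 0.54 ± 0.19 in B cells (adjusted p = 0.0274), and differed by -0.28 ± 0.21 in monocytes (adjusted p = 0.351). Cirbp, chosen on the same PBS samples, differed by -1.03 ± 0.22 in T cells, -0.62 ± 0.21 in B cells and -1.10 ± 0.23 in monocytes. In CBM monocytes it ranged from 22.8 to 82.6 CPM (median 46.6), with 8 of 13 samples below the lowest PBS sample and all 13 below the PBS median. In CBM T cells it ranged from 64.5 to 193 CPM (median 124), with 7 of 12 below the PBS range, and in B cells from 107 to 211 (median 158), within the PBS range. Both cold-inducible genes had a lower median in EtOH and in CBM than in PBS in all 3 cell types.

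Among heat shock members 1 of 5 tested passed in T cells, Hsp90aa1, and by edgeR none of 4 in B cells or of 5 in monocytes, Hspa1a being given no test. In B cells 1 of them and in monocytes 0 had an unadjusted p under 0.05, and DESeq2 passed 0 in either. Of all genes, 6801 of 14525 in B cells and 5036 of 13475 in monocytes had such a p by edgeR. Hsp90aa1 ranged from 205 to 419.6 CPM in PBS T cells (median 258) and from 114 to 427 in CBM T cells (median 170.0), with 9 of 12 CBM samples below the PBS range and 1, CBM11, above it. It fell by 0.73 ± 0.24 (edgeR adjusted p = 0.0174). Hspa1b differed by 1.55 ± 0.81 in T cells (adjusted p = 0.128) and 0.86 ± 0.90 in monocytes (adjusted p = 0.514), and Hsph1 by -0.20 ± 0.40, -0.17 ± 0.40 and -0.44 ± 0.45, errors that hold changes in either direction. Hspa8 differed by -0.13 ± 0.18, 0.07 ± 0.25 and -0.41 ± 0.26, and Dnajb1 by 0.20 ± 0.32, 0.44 ± 0.23 and -0.46 ± 0.27. Hsf1 fell by 0.54 ± 0.12 in T cells (adjusted p = 0.00130) and differed by -0.27 ± 0.13 in B cells (adjusted p = 0.0934) and -0.49 ± 0.20 in monocytes (adjusted p = 0.0709). Hspa1a, at 0.71 ± 0.91 in monocytes, was below the count filter in lymphocytes, and Hspa1b in B cells.

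Of the 8 members given a test, 4 of 8 passed in T cells, 2 of 7 in B cells and 1 of 8 in monocytes, all of them lower in CBM. Of all genes 45.2%, 36.2% and 25.5% passed, and 22.1%, 19.4% and 14.1% passed as lower. No test set the members against all genes. Without samples whose transcripts contradict a label, 5 of 8 passed in T cells (41.9% of all genes), with Hspa1b now higher at 2.71 ± 0.97 (edgeR adjusted p = 0.0352), 2 of 8 in B cells (42.9%) and 1 of 8 in monocytes (19.9%). That Hspa1b call is not independent of the choice of Hspa1a, whose sequence it mostly shares, nor are calls of Rbm3 independent of the choice of Cirbp. Without CBM11 alone, 4 of 8 passed in T cells (42.4%), 2 of 7 in B cells (34.0%), where Hsp90aa1 passed and Rbm3 did not, and 3 of 8 in monocytes (29.1%), where Dnajb1 and Hsp90aa1 joined Hspa5.

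Related pathway genes showed where the wider network stood in CBM against PBS. Of 26 further chaperones and co-chaperones of the heat shock network, 7 of 22 tested passed in T cells (1 higher, 6 lower), 8 of 22 in B cells (1 and 7) and 8 of 23 in monocytes (2 and 6), with a median log2 difference of -0.30, -0.16 and -0.28 against 0.04, 0.06 and -0.01 over all genes. Over all genes tested 45.2%, 36.2% and 25.5% passed in the same order. Dnajb6, an Hsp40 that keeps aggregation-prone proteins soluble, fell by 0.85 ± 0.12 in T cells (edgeR adjusted p = 1.47e-05), 0.77 ± 0.12 in B cells and 0.75 ± 0.12 in monocytes. Bag1, a nucleotide exchange factor of Hsp70, fell by 1.58 ± 0.39, 1.55 ± 0.32 and 1.30 ± 0.29 in the same order. Hsf2, a partner of Hsf1, rose by 1.48 ± 0.31 in T cells (adjusted p = 7.62e-04), 1.34 ± 0.42 in B cells (adjusted p = 0.0159) and 1.41 ± 0.40 in monocytes (adjusted p = 0.0118). Its level was low, with a mean of 9.92 CPM in CBM and 3.14 in PBS T cells, and 10.3 and 3.88 in monocytes. With no filter on low counts, the median over all genes was 0.98 in T cells, 0.53 in B cells and 0.49 in monocytes. The part of this shift in the rise of Hsf2 was not tested. Of 8 subunits of the chaperonin that folds actin and tubulin, 2 passed in T cells, 3 in B cells and none in monocytes by edgeR, where 2 had an unadjusted p under 0.05. DESeq2 also passed 0 of the 8 in monocytes, with 3 at an unadjusted p under 0.05. Over all genes in monocytes 5036 of 13475 had such a p by edgeR and 8965 of 46847 by DESeq2. All that passed were lower, among them Cct8 at -0.49 ± 0.11 in T cells and -0.50 ± 0.11 in B cells.

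Of the endoplasmic reticulum stress genes that passed, most were lower in CBM. Of 20, 8 passed in T cells (2 higher, 6 lower), 10 in B cells (2 higher, 8 lower) and 9 in monocytes (2 higher, 7 lower), with a median log2 difference of -0.20, -0.29 and -0.36 against 0.04, 0.06 and -0.01 over all genes. The shares of all genes that passed were 45.2%, 36.2% and 25.5%, so the list held no larger share of calls than all genes in T cells. Eif2ak3, the stress sensor kinase PERK, fell by 2.47 ± 0.28 in T cells (edgeR adjusted p = 1.14e-06), 2.23 ± 0.26 in B cells and 1.29 ± 0.23 in monocytes. Herpud1, a component of the degradation of misfolded proteins, fell by 1.23 ± 0.12, 1.31 ± 0.21 and 0.65 ± 0.15. Atf4, a transcription factor downstream of PERK, fell by 0.97 ± 0.12 in T cells and 0.82 ± 0.16 in B cells. Ern1, the sensor IRE1, rose by 2.08 ± 0.30 in monocytes (edgeR adjusted p = 2.35e-05). Each moved the same way in the other cell types. Mean Ern1 was 20.7 CPM in CBM and 5.30 in PBS T cells, and 11.8 and 5.30 in B cells. Mean Atf4 was 86.8 CPM in CBM and 135 in PBS monocytes. DESeq2 passed both genes in each cell type. Of 3 genes tied to temperature or Rbm3, the SR protein kinases Clk1 and Clk4 passed as lower by edgeR in all 3 cell types, Clk1 by 1.05 ± 0.17, 0.52 ± 0.13 and 1.16 ± 0.17. DESeq2 passed Clk1 in all 3 and Clk4 in monocytes only. Clk4 in B cells was at 167 ± 16.8 CPM (mean ± SD) in CBM and 177 ± 34.5 in PBS. Rtn3, whose translation Rbm3 raises in mouse neurons, rose by 0.55 ± 0.18 in T cells (adjusted p = 0.0156).

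Within the CBM samples, cold-inducible and heat-inducible genes ran against each other in lymphocytes, and no such pair passed in monocytes. Pearson's r and Spearman's rho were computed on log2(CPM + 1) over 12 T cell, 13 B cell and 13 monocyte samples for the 45 pairs of members in each cell type, 135 pairs in all, with permutation tests adjusted together. Of the 36 pairs of a cold-inducible with a heat shock member 11 passed by r, all negative, 7 of 12 in T cells, 4 of 12 in B cells and none of 12 in monocytes, and 8 passed by rho. None of the 12 monocyte pairs had an unadjusted permutation p under 0.05 by r, and the lowest was 0.0721. The median r was -0.67 in T cells, -0.57 in B cells and -0.10 in monocytes. Neither the difference in r between cell types nor the part of monocyte RNA in T cell samples was tested.

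The pair with the largest negative r was Cirbp with Hspa8 in B cells (r = -0.80, permutation adjusted p = 0.00374, rho = -0.76, adjusted p = 0.0209, n = 13), which kept r = -0.71 without the 2 samples farthest from the median of Cirbp. In T cells Cirbp and Hspa1a had r = -0.76 (permutation adjusted p = 0.00966) and rho = -0.86 (adjusted p = 0.00799), with r = -0.86 without 2 samples. Rbm3 and Hspa1b in T cells had r = -0.77 (permutation adjusted p = 0.00966) and rho = -0.82 (adjusted p = 0.0153), with r = -0.63 without 2 samples. Rbm3 and Hspa1a in T cells (r = -0.70) and Rbm3 and Hspa1b in B cells (r = -0.65) moved to -0.40 and -0.39 without 2 samples and rest in good part on them. In monocytes Cirbp correlated with Hspa1a at 0.19 and with Hspa8 at 0.13 (permutation adjusted p = 0.691 and 0.795). Rbm3 had a negative r there with 5 of the 6 heat shock members, from -0.40 with Dnajb1 to -0.58 with Hsp90aa1, and the exception was Hspa8 (0.15). None of these passed, their rho lay between -0.10 and 0.19, and without 2 samples the 5 were positive, from 0.10 to 0.46.

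**Figure D3:**
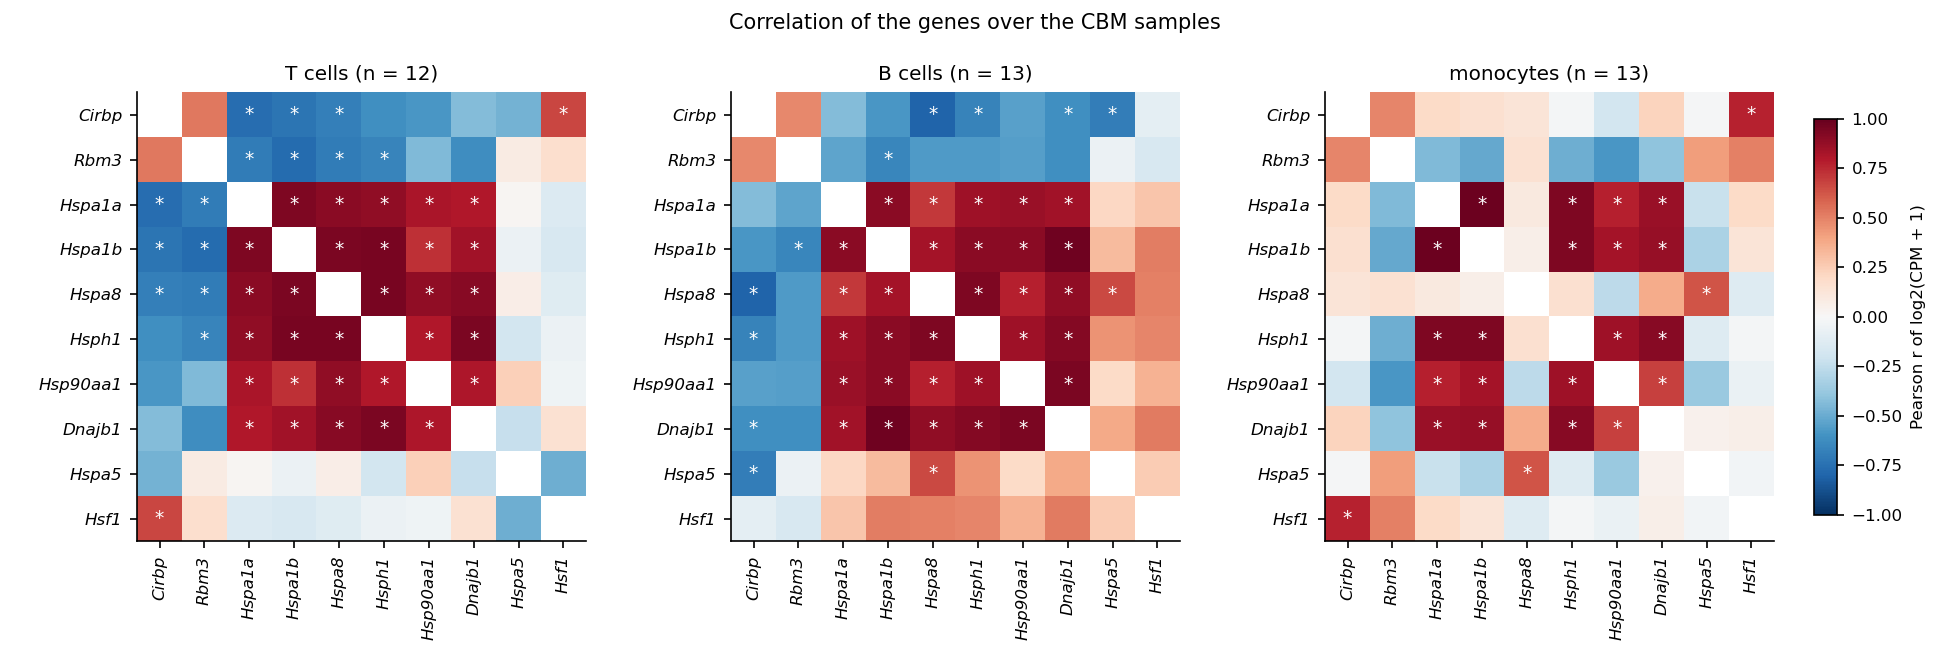
Pearson r on log2(CPM + 1) between each pair of members in CBM T cells (n = 12), B cells (n = 13) and monocytes (n = 13). Colour gives r from -1 to 1 and stars mark a permutation adjusted p under 0.05. The chaperone block is positive in each cell type apart from Hspa8 in monocytes (-0.26 with Hsp90aa1), and the Cirbp and Rbm3 entries are negative against it in T and B cells.

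The heat shock members varied together. Of their 45 pairs 40 passed by r, all positive, with medians of 0.89 in T cells, 0.89 in B cells and 0.83 in monocytes, and the 5 that did not pass were those of Hspa8 in monocytes, with r from -0.26 to 0.37. By rho 22 of the 45 passed (10 in T cells, 5 in B cells and 7 in monocytes). Without CBM11 22 passed by r (8, 7 and 7), with medians of 0.73, 0.66 and 0.69, and without CBM11 and CBM2 10 did. In B cells Hspa1a had r of 0.90 with Hspa1b, 0.71 with Hspa8 and 0.84 with Dnajb1, which became 0.19, -0.11 and 0.01 without the 2 samples farthest from the median of Hspa1a, so these relations rest on those samples. The highest r was that of Hspa1a with Hspa1b in monocytes (r = 0.98), genes that share most of their sequence. Cirbp and Rbm3 correlated with each other in the 3 cell types at 0.53, 0.48 and 0.49, in the same order, and did not pass (permutation adjusted p = 0.143, 0.167 and 0.130). Cirbp also correlated with Hsf1 in T cells (r = 0.67, permutation adjusted p = 0.0399) and monocytes (r = 0.77, adjusted p = 0.00937), and against Hspa5 in B cells (r = -0.69, adjusted p = 0.00912).

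The cold against heat relations depended in part on CBM11. Without CBM11, 3 of the 36 cold against heat pairs passed, Cirbp with Hspa1a (r = -0.80, permutation adjusted p = 0.0224) and Rbm3 with Hspa1b (r = -0.71, adjusted p = 0.0482) in T cells and Cirbp with Hspa8 in B cells (r = -0.78, adjusted p = 0.0258). All 24 such pairs in lymphocytes stayed negative, with medians of -0.57 (T cells) and -0.39 (B cells). In monocytes 1 of 12 was negative, with a median of 0.28. With TMM scaling in place of total counts, 4 of 36 passed. In batch 1, taken as deviations from the mean of each group over PBS and EtOH samples, 6 of 36 passed and all were negative. They were Cirbp and Rbm3 with Hspa1b in T cells (r = -0.76 and -0.74), both with Hspa8 in B cells (-0.77 and -0.81) and Cirbp with Hspa1a and Hspa1b in monocytes (-0.80 and -0.76). Other cold against heat pairs in T cells were positive. Cirbp and Rbm3 with Hsp90aa1 had r = 0.63 and 0.60 (permutation adjusted p = 0.0725 and 0.0576). The T cell set holds JS29 and the monocyte set JS17, which carried transcripts of another cell type. None passed without samples whose transcripts contradict a label, where 26 of 36 were negative, 3 had an unadjusted permutation p under 0.05 by r, and none passed by rho. Both batches are separate sets of samples.

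**Figure D4:**
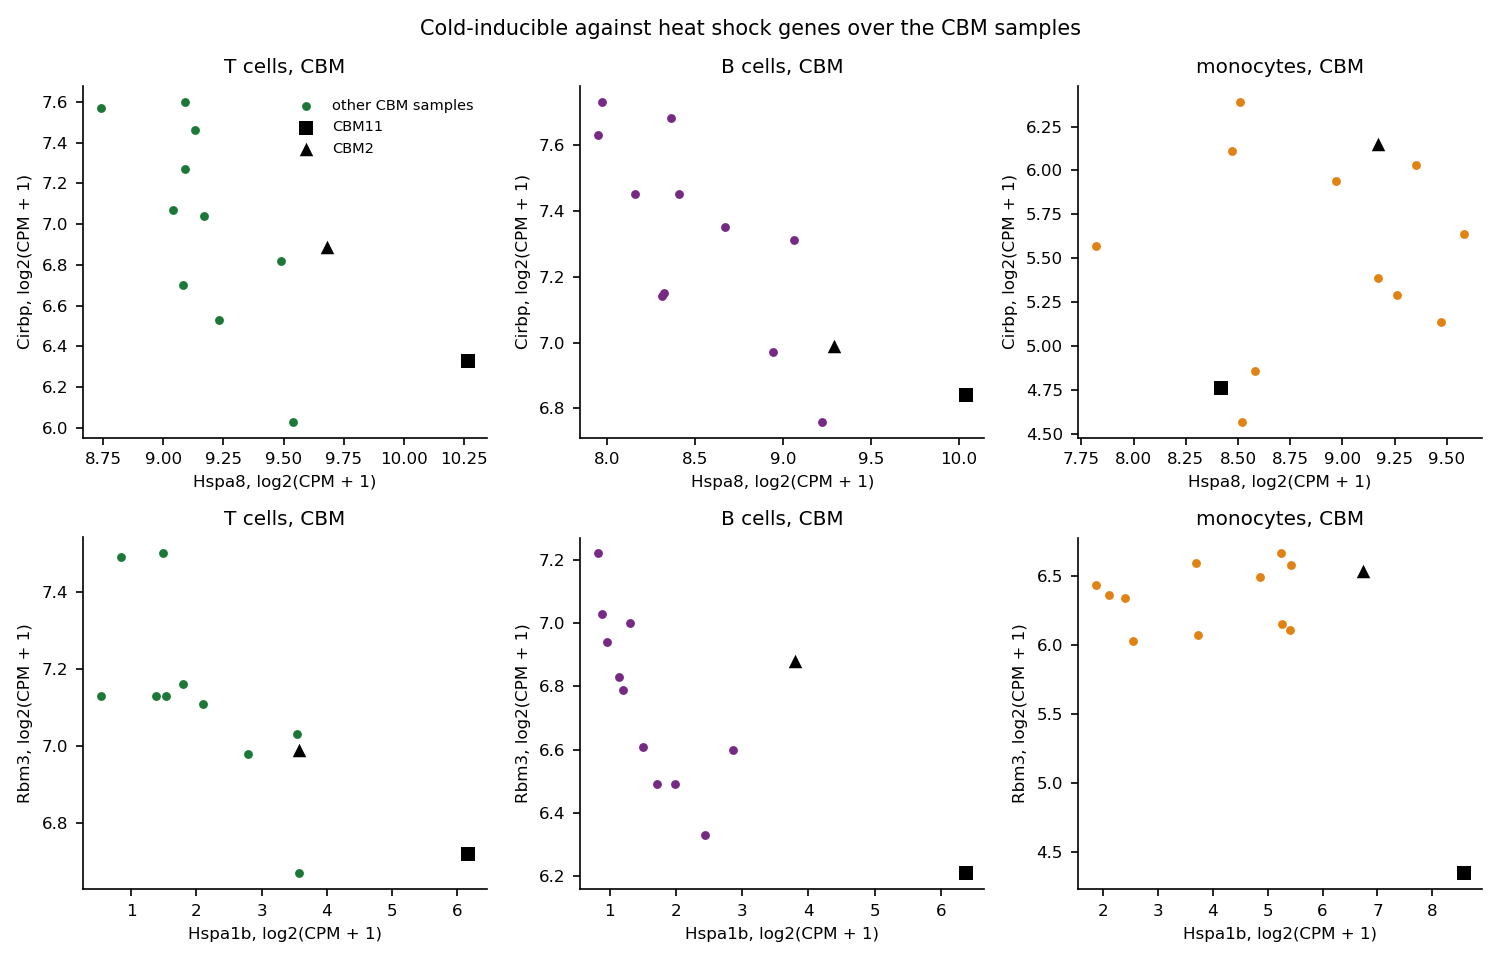
Cirbp against Hspa8 (top) and Rbm3 against Hspa1b (bottom) in CBM T cells, B cells and monocytes, each point a sample, both axes log2(CPM + 1). The square is CBM11 and the triangle CBM2. Points descend to the right in T and B cells (r = -0.68 and -0.80 for the top pair, -0.77 and -0.65 for the bottom). In monocytes r is 0.13 for the top pair and -0.51 for the bottom pair, where CBM11 lies apart.

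CBM11 held the highest level of every heat shock member among CBM samples in T and B cells, and in monocytes of every one but Hspa8. Hspa1b was at 71.0 CPM in its T cells against a median of 2.45 over the other 11 samples (29.0-fold), at 82.1 in its B cells against 1.66 over 12 (49.6-fold) and at 379 in its monocytes against 20.1 (18.8-fold). Hspa1a was at 33.2 CPM in T cells, where the others ranged from 0.172 to 5.61. Hsph1 was at 913, 886 and 264 CPM in T cells, B cells and monocytes against medians of 153, 77.4 and 50.6, and Dnajb1 at 787, 556 and 273 against 237, 155 and 108. Constitutive Hspa8 was 2.21-fold above the median in T cells and 3.15-fold in B cells, and below it in monocytes (342 against 537 CPM). Rbm3 was at 19.4 CPM in CBM11 monocytes, the lowest of 13 and 4.28-fold under the median of the others, while Cirbp was at 79.6, 114 and 26.1 CPM against 131, 160.2 and 47.7. In CBM11 monocytes 37.9% of all genes were at their lowest, and their median ratio to the other samples was 0.730 over all genes. Hspa5 lay near the others in T cells (675 against 706 CPM), and Hsf1 too (139 against 129). CBM2 held the next highest Hsph1 and Dnajb1 value in each cell type, with Hsph1 at 356, 261 and 130.5 CPM in T cells, B cells and monocytes.

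Of 21 of these further chaperones and co-chaperones with a mean of at least 10 CPM, 14 (66.7%) were highest in CBM11 among T cell samples and 13 (61.9%) among B cell samples, against 6.45% and 6.54% of all genes. In monocytes it was 3 of 21 (14.3%), against 14.7% of all genes. Endoplasmic reticulum stress genes were highest there in 1 of 20 in T cells, 1 of 20 in B cells and 4 of 20 in monocytes. The early response score of CBM11 was above the others in T cells (7.21 against 6.06 to 6.94) and B cells (7.82 against 6.69 to 7.76). In monocytes of CBM11 4.11% of counts were mitochondrial, against 0.419% to 1.42% in the others. In its T and B cells the mitochondrial share was 1.42% and 1.38%, within the range of the others, and its totals of 4.18, 3.81 and 5.25 M counts were too. The part of early response and mitochondrial RNA in these levels was not tested.

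Members followed the CBM number across sorted cell types. Over samples with the same number, Hsph1 correlated at r = 0.97 between T and B cells (permutation adjusted p = 1.50e-04, n = 12), 0.92 between T cells and monocytes (adjusted p = 3.60e-04) and 0.93 between B cells and monocytes (adjusted p = 1.50e-04). Dnajb1 reached 0.92, 0.86 and 0.83, and Hspa1b 0.89, 0.90 and 0.87. Cirbp correlated between T and B cells (r = 0.80, permutation adjusted p = 0.00448), and its r with monocytes was 0.40 and 0.20. Hsf1 had r of 0.27, 0.25 and -0.17. Of 30 such tests, which were added after the data had been seen, 19 passed by r and 15 by rho, and 14 passed by r without CBM11. The r of Hsph1 without CBM11 was 0.94, 0.88 and 0.91. The labels do not say whether a number marks 1 animal, so animal, sorting session and library preparation cannot be told apart.

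**Figure D5:**
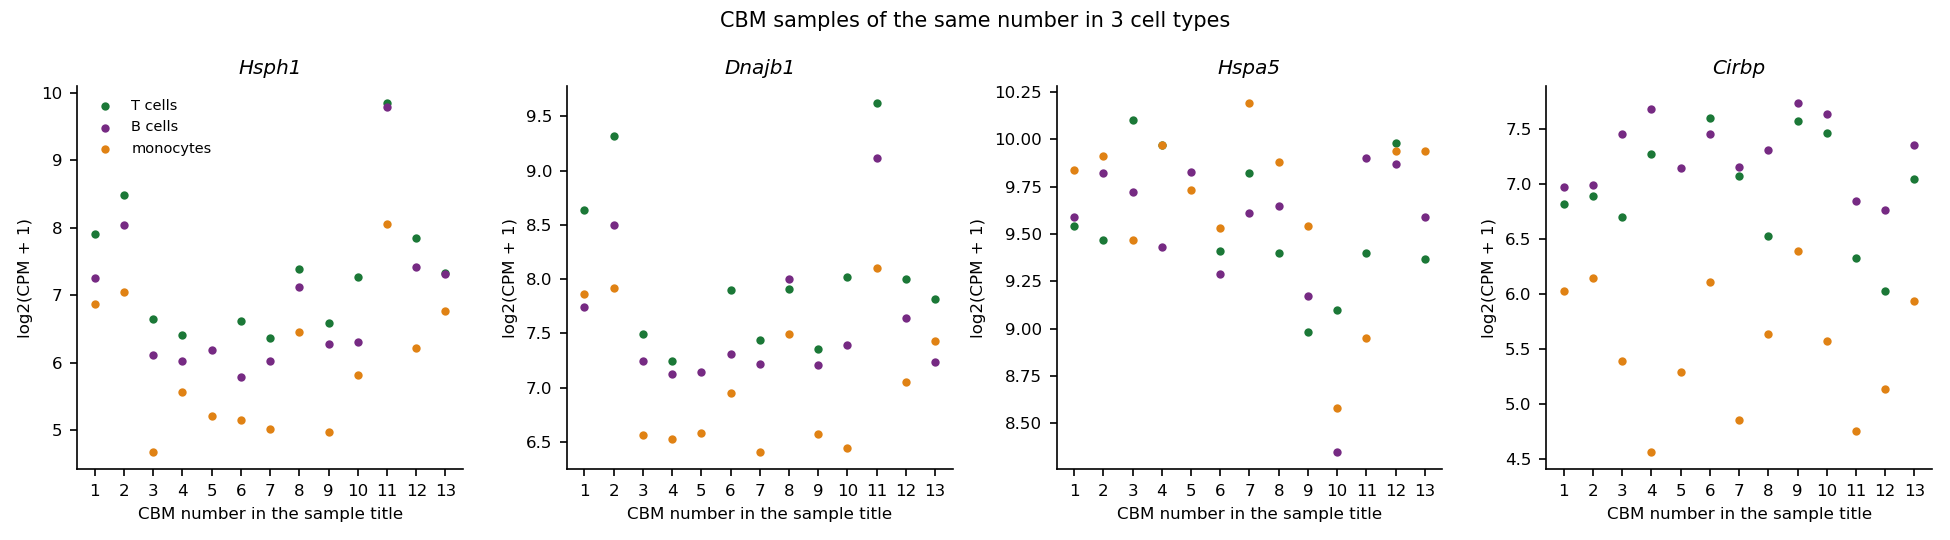
Level (log2 of CPM + 1, y axis) of Hsph1, Dnajb1, Hspa5 and Cirbp by CBM number (x axis, 1 to 13) in the 3 sorted cell types. Points are samples, coloured by cell type (T cells green, B cells purple, monocytes orange). CBM11 holds the highest Hsph1 and Dnajb1 value in each cell type.

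Genes most like the members across the 38 CBM samples, after removing the mean of each cell type, are a description over 7861 genes of at least 10 CPM in each cell type. Samples share numbers and the batch. Cirbp was most like Srsf5 (r = 0.80), a splicing factor, followed by Tmem234 (0.75) and Miip, Arhgap9 and Cyp4f13 (0.72 each), while Rbm3 stood at 0.48, in place 403. Hspa8 was most like Fkbp4 (0.87) and Stip1 (0.86), co-chaperones of Hsp90, and Hspd1 (0.84), the mitochondrial chaperonin. Hspa5 was most like Lman2 (0.88), a cargo receptor of the secretory pathway, and Wdr1 and Hnrnpa2b1 (0.87 each), with the endoplasmic reticulum chaperone genes Hsp90b1 (0.86) and Pdia4 (0.85) next. Hspa1a was below the floor, and measured against the same genes was most like Hsph1 (0.88), Dnaja1 (0.85) and Ahsa2 (0.85), which were 0.75, 0.77 and 0.66 without CBM11.

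Female and male CBM samples were compared within each cell type, and no member passed by edgeR or by DESeq2, where 0%, 0.0361% and 0.0343% of all genes passed by edgeR in T cells, B cells and monocytes. By edgeR 3 of 10 members in T cells, 2 of 9 in B cells and 1 of 10 in monocytes had an unadjusted p under 0.05, and by DESeq2 1, 1 and none. Over all genes 717 of 15696, 352 of 16609 and 2710 of 14597 had such a p by edgeR. By DESeq2 1000 of 46150, 614 of 46825 and 6734 of 45185 had one. Hspa1b had a log2 difference (female minus male) of -2.31 ± 0.87 in T cells, -2.15 ± 0.97 in B cells and -2.16 ± 0.95 in monocytes (edgeR adjusted p = 0.996, 1.000 and 0.242). CBM11 is labelled male.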

How the data were processed

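Counts of reads per gene, raw and not normalised, were deposited by the authors for 124 libraries. Per the labels' protocols, RNA of sorted cells was made into libraries by SMART-Seq v4 and Nextera XT kits for a NovaSeq. The tools included, per the submitters' processing notes, bcl2fastq, FastQC, HISAT2 2.1.0 and HTSeq 0.11.2, and the builds named are GRCm38 and GRCh38. Of the gene identifiers, 99.6% (53274) matched the mouse annotation used here, and 3 lines named no gene and were left out.

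The 39 pairs of repeat libraries differed by little more than sampling noise (chi-square per gene 1.10 to 1.32, against at least 3.01 between samples of a group) and were summed, which left 85 samples. Levels are CPM and correlations use log2(CPM + 1). Differences were fitted within each cell type with edgeR 4.0.16 under R 4.3.3 (quasi-likelihood, TMM factors, genes filtered by filterByExpr at 10 counts and a total of 15), with sex as a term in comparisons of treatments and of cell types. Benjamini-Hochberg adjusted p over all genes tested passed under 0.05. Alternatives were DESeq2 1.42.0, its size factors, other filters, marker scores or CBM number as terms, another pseudocount and left-out samples. The main fit of cell types in CBM did not use the CBM number. For T against B cells the fit with the number as a block is given beside it. The deviations of all 12 T and B cell pairs of the same number correlated over 0.1 (0.11 to 0.43), and those with monocytes did not all do so. The median r was 0.26 between T and B cells, 0.32 between T cells and monocytes and 0.33 between B cells and monocytes. The main fits against monocytes left this pairing out, and their counts with the block are given below. Correlations were tested by 100000 permutations (two-sided, smallest p 1e-05) with scipy 1.17.1 in Python 3.11.15. Both procedures were tested on simulated data. The rule for named list genes took those with the lowest p, up to 4 in a list, and for likeness the first 5 genes with a name. Members and lists were chosen with earlier results of these data known. Floors cover counting error only.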

Additional observations from a re-analysis of the deposited data

Results flagged for a closer look

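In 4 of 60 combinations of a member and a group of 4 to 10 samples, the highest sample stood apart from the rest of its group by Dixon's criterion, which chance alone meets in about 1 of 20. Hspa1a was at 5.44 CPM in the EtOH T cell sample JS29, where the next highest of 9 was at 1.72, and this sample carried monocyte transcripts. Hsf1 was at 187 CPM in the PBS monocyte sample JS17, where the next highest of 8 was at 111, and this sample carried T cell transcripts. Hsph1 was at 375 CPM in the PBS B cell sample JS13, where the next of 8 was at 202. Hsp90aa1 was at 346 CPM in the same sample, where the next was at 240.3. Groups of CBM hold more than 10 samples and were not examined in this way.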

How the results depend on the processing

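Of 112 counts recomputed under alternatives, 95 stayed within 1.5 times and 17 did not. Of 1686 single values, 1600 stayed as they were in direction and call, or within the replicate spread where no test applies, 53 lost a call, 10 gained one, 9 moved and 14 changed sign. The samples that go against a label, CBM11 and CBM2 were left out after the data had been seen. The cause of the changes was not tested.

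For CBM against PBS, of the 8 members given a test, those passing in B cells went from 2 to 1 with no filter on low counts and to 1 with marker scores as terms, and in monocytes from 1 to 3 without CBM11 and to 3 without CBM11 and CBM2. Over all genes 6895 of 48054, 5644 of 14525, 3882 of 13355 and 3744 of 13036 passed under these settings, in the same order. No calls on members were counted for EtOH against PBS. Between T and B cells in PBS, 1 became 2 with no filter (4719 of 46127 genes passed) and 2 without samples against a label (4852 of 13880). Between T cells and monocytes 5 became 3 with a minimum count of 50 (5341 of 9980). Female against male in monocytes went from 0 to 2 with no filter, where 720 of 45185 genes passed.

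Of 135 correlations in CBM 56 passed, 29 without CBM11 and 13 without CBM11 and CBM2. Of the cold against heat pairs 11 passed, 4 with TMM, 6 without samples against a label, 3 without CBM11 and 2 without CBM11 and CBM2. In batch 1, 27 passed and 4 without samples against a label, and of cold against heat pairs 6 and 0.

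Signs changed in CBM against PBS with no call on either side. Without samples against a label these were Hspa8 and Hsph1 in T cells (0.02 each), Hsph1 in B cells (0.13) and Hspa8 (0.12), Hsp90aa1 (0.10) and Hsph1 (0.66) in monocytes. With marker scores as terms they were Hsph1 in T cells (0.17) and monocytes (0.22) and Hspa8 in B cells (-0.22). Without CBM11 they were Dnajb1 in T cells (-0.05) and Hspa8 in B cells (-0.11), and without CBM11 and CBM2 Dnajb1 in T cells (-0.24), Hspa8 in B cells (-0.19) and Hspa1b in monocytes (-0.37).

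Over all genes, DESeq2 passed 12297, 9660 and 5162 genes in CBM against PBS where edgeR passed 6734, 5262 and 3433, with 76.0% of calls higher in T cells against 51.1% and 71.5% in B cells against 46.5%. The median over genes moved from 0.04 to 0.10 in T cells with DESeq2's size factors.

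With the CBM number as a replicate block, 4 members passed between T and B cells (Cirbp, Hspa8, Hsph1 and Dnajb1) against 0 without it. For monocytes, where not every same-numbered pair exceeded r = 0.1 (9 of 12 with T cells and 12 of 13 with B cells), the block gave 9 against T cells and 7 against B cells, where 7 and 5 passed without it. Over all 16687 genes the block gave 8543 and 9218, where 8253 and 8730 passed without it. Over the 3 cell types 26 of 37 pairs correlated best with their own number, a hint from the data and not from the labels. Depth limits Hspa1a and Hspa1b in lymphocytes, where several samples had no count.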

Other observations

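Further chaperones were also high in CBM11 lymphocytes, and not as a group in its monocytes, where the median ratio to the other samples was 0.965 over the list, with 5 of 21 at their lowest, and 0.730 over all genes. In its B cells Dnaja1, an Hsp40 co-chaperone, was at 976 CPM against a median of 222 in the other 12 samples, and Stip1, which joins Hsp70 to Hsp90, was at 699 CPM against 161. In its T cells Stip1 was at 840.0 CPM against 277. Of 8 chaperonin subunits, 6 were highest in CBM11 among T cell samples, 7 among B cell samples and 2 among monocyte samples, against 6.45%, 6.54% and 14.7% of all genes. The median chaperonin ratio in monocytes was 0.691. In its monocytes 37.9% of all genes were at their lowest.

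Between cell types in CBM, all 8 chaperonin subunits had positive differences in T cells against B cells and against monocytes, and 4 and 5 of them passed (31.8% and 49.5% of all genes). Of 20 endoplasmic reticulum stress genes 13 passed as lower and 1 as higher in T cells than in monocytes, and 10 as lower and 2 as higher in B cells than in monocytes, with median differences of -0.49 and -0.36 against 0.11 and 0.29 over all genes.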
